A study of Homo sapiens with 56 samples.

Results

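HEY and HEYC2 are established human ovarian carcinoma cell lines that share an origin, and here their gene expression was set against that of the 7 other lines labelled as grown in RPMI 1640 (A2780, COLO720E, EFO21, OVCAR2, OVCAR3, OVCAR5 and PEO1). The arrays were chosen by cell line and medium label, apart from 1 array left out for its signal range. They are 3 arrays of HEY and HEYC2, out of 56 arrays of 28 lines in all, and were compared with 14 arrays, 2 for each of the 7 lines. HEY entered with replicates 1 and 2 and HEYC2 with replicate 2 only, because replicate 1 of HEYC2 has a compressed signal range. The study followed epithelial–mesenchymal transition (EMT), the graded loss of epithelial and gain of mesenchymal traits, and its epigenetic marks across ovarian cancer lines. HEY, HEYC2, A2780, COLO720E and PEO1 were grown with 10% fetal bovine serum (FBS). EFO21 had 20% FBS and non-essential amino acids, OVCAR2 and OVCAR5 had 10% FBS with 10 µg/ml insulin, and OVCAR3 had 20% FBS with 10 µg/ml insulin. The line, not the array, is the unit of the comparison with the 7 lines. The labels do not say whether duplicate arrays came from separate cultures, so p-values between HEY and HEYC2 measure the spread between duplicate arrays, which may be technical.

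Epithelial cells are held together by cadherin junctions, tight junctions and desmosomes, and polarity proteins set their apical and basal sides. In EMT, transcription factors such as ZEB1, ZEB2 and SNAI2 repress junction genes, and vimentin (VIM) and N-cadherin (CDH2) become prominent as E-cadherin (CDH1) is lost. Ovarian carcinoma lines are known to spread widely along this axis and often to sit at intermediate states.

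Expression is given as the RMA intensity on the log2 scale, where a difference of 1 is a doubling of the signal, and levels were compared only within a gene. The 17 arrays used had medians of 5.96 to 6.15 and standard deviations (SD) of 2.09 to 2.30, against an SD of 1.84 for replicate 1 of HEYC2. Across genes, which are not independent replicates, the HEY arrays correlated at r = 0.995 with each other and at 0.984 with HEYC2 replicate 2, while duplicates of one line gave 0.984 to 0.995. The 3 arrays correlated at 0.893 to 0.947 with those of the 7 lines, most closely with OVCAR5 (mean r = 0.945) and least with COLO720E (mean r = 0.896), and arrays of different lines among the 7 gave 0.880 to 0.931. The correlation of HEYC2 replicate 1 with replicate 2 was 0.748. It was left out of the comparisons, and its values are given beside the leading genes and otherwise as counts. Of the arrays of the other 26 lines, 1 array each of OV56 and OVCA420 was compressed in the same way (SD 1.89 for both), and these were left out wherever all lines were used.

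The labels were checked against markers of other cell types. Of 9 leukocyte markers, 7 lay below the array median in all 3 arrays, CD68 and NKG7 being the others, and so did 5 of 8 endothelial markers (not CDH5, CLDN5 and TIE1), 5 of 9 fibroblast markers (not COL1A1, COL3A1, THY1 and PDPN) and 2 of 6 mesothelial markers (not MSLN, CALB2, WT1 and LRRN4). A median splits the values of an array evenly, so genes of any kind often lie below it. The share of all genes below it in the 3 arrays was not counted, and these counts alone say little about cell type. The mean level of the leukocyte list was 5.35 to 5.55 in HEY and HEYC2 and 5.23 to 5.65 in the 14 arrays. Endothelial markers had a mean level of 5.72 to 6.23 against 4.98 to 6.59, fibroblast markers of 5.51 to 5.59 against 4.97 to 6.47, and mesothelial markers of 5.44 to 5.53 against 5.12 to 6.22. For each of these 4 lists the range of HEY and HEYC2 lay inside that of the 7 lines. Among epithelial markers, the keratin gene KRT8 read 12.13, 12.13 and 12.24 in HEY replicates 1 and 2 and HEYC2 replicate 2, and KRT18 read 12.03, 12.06 and 11.92. Both keratins lay within the range of the 14 arrays, whereas CDH1 and EPCAM lay below it. The keratin gene KRT19 differed by -1.9 log2 units from the 7 lines and was 3.46 lower in HEYC2 than in HEY. PAX8, a transcription factor of Mullerian epithelium, read 8.04, 8.08 and 9.15, within the 6.07 to 10.84 of the 14 arrays, and differed by 0.44 from the 7 lines. The other Mullerian markers checked had negative differences, WT1 of -0.09, MUC16 of -1.29, SOX17 of -0.67 and EMX2 of -0.86.

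To ask what sets HEY and HEYC2 apart from other lines in the same base medium, their 2 line values were compared with the 7 other line means in limma. Of 18377 genes, 34 (0.185%) were higher and 5 (0.0272%) lower in the HEY lines at a Benjamini-Hochberg adjusted p under 0.05 and a difference of at least 1 log2 unit. In all 34 and all 5, the 3 HEY and HEYC2 arrays also lay outside the 14 other arrays. Because the lines share an origin, they were also merged into 1 value and compared as 1 against 7. The count was then 11 genes higher (0.0599%), 10 of them among the 34, and 0 lower (0.0%). In limma 188 of the 18377 genes were lower at an unadjusted p under 0.05, not more than chance alone gives over so many tests. Without HEY 10 genes were higher and 1 lower, without HEYC2 15 and 0, and without OVCAR5 43 and 9. Against only the 3 lines in RPMI 1640 with 10% FBS and no supplement, 26 genes were higher, 10 of them among the 34, and 2 lower, 0 of them among the 5. With HEYC2 as the mean of both of its arrays 24 genes were higher, 21 of them among the 34, and 5 lower, 3 of them among the 5. On simulated data the comparison recovered 58% of genes changed by 1.5 log2 units and 90% of those changed by 4, with 5 false calls. The simulation drew HEY and HEYC2 as independent lines, which lines of shared origin are not. These shares and false calls may therefore not hold for the real pair.

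The widest difference was that of ESM1, which encodes the secreted proteoglycan endocan. Its level was 10.59, 10.42 and 10.51 in HEY replicates 1 and 2 and HEYC2, and 3.77 to 6.03 (median 4.57) in the 14 other arrays, with the highest line means in OVCAR5 (5.77) and PEO1 (5.73). The 3 arrays lay close together and far above every other array, a difference of 5.80 ± 0.52 (SE; limma adjusted p = 0.00269). With HEY and HEYC2 merged, the adjusted p was 0.0705 and ESM1 was not called. HEYC2 replicate 1 read 7.65, below replicate 2 but above the 14 arrays.

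BNC1, a zinc-finger transcription factor of keratinocytes and germ cells, had the smallest p. It read 8.18, 8.03 and 8.26 in the HEY lines against 4.03 to 4.89 (median 4.56). All 7 other line means sat in a narrow band from 4.35 to 4.80, and the difference of 3.64 ± 0.13 passed with HEY and HEYC2 as separate lines (limma adjusted p = 5.3e-06) and merged (0.000404). RNF17, a tudor-domain protein of male germ cells, read 6.53, 6.35 and 6.57 against 2.66 to 3.85 (median 2.97), a difference of 3.49 ± 0.17 (limma adjusted p = 5.88e-05, merged 0.00199). TMEM71, a transmembrane protein, read 9.14, 8.87 and 8.29 against 3.03 to 4.46 (median 3.66), a difference of 5.03 ± 0.26 (limma adjusted p = 5.88e-05, merged 0.00113). In these 3 genes the other RPMI 1640 lines were low. HEYC2 replicate 1 read 6.12 for BNC1 and 5.03 for TMEM71, above the 14 arrays, but 3.62 for RNF17, inside their range and far below replicate 2.

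The promoter sequences of BNC1 and RNF17, with the lowest p and the widest gap to all 26 other lines respectively, are shown because promoter CpG sites are a feature the study followed. They are the 250 bases upstream of the transcription start, 5′ to 3′ (RefSeq, GRCh38.p14), with each CG dinucleotide in capitals. BNC1 lies on the minus strand at chr15:83284665-83284914, the first of 2 windows listed, and RNF17 on the plus strand at chr13:24763919-24764168.
BNC1: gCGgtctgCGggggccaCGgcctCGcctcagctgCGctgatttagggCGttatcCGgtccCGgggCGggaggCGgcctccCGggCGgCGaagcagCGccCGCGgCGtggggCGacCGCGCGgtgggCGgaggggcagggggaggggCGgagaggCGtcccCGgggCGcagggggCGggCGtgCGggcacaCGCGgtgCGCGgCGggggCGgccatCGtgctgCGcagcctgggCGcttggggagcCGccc
RNF17: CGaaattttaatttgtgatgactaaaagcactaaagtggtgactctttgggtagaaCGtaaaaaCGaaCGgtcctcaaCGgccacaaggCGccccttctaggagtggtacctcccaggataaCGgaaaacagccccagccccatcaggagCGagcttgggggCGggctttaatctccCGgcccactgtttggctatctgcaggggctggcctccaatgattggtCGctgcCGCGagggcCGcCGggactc
The BNC1 window holds 39 CG dinucleotides and that of RNF17 holds 15, against a median of 18.0 over the 14210 tested genes with a window. Of the 34 genes higher in the HEY lines, 22 had a window, with a median of 17.5, and 45.5% of them held 20 or more, against 45.0% of all tested genes with a window. Methylation was not analysed here.

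Other large rises included enzymes, proteases and adhesion proteins. AOX1, aldehyde oxidase, read 9.20, 9.06 and 10.04 against 4.30 to 6.79 (median 4.89), a difference of 4.51 ± 0.55 (limma adjusted p = 0.0183, merged 0.196). DOCK10 read 8.19, 8.15 and 8.15 against 3.67 to 5.72 (median 4.46). UAP1, which makes UDP-N-acetylglucosamine for glycosylation, read 11.73, 11.58 and 11.37 against 8.01 to 9.74 (median 8.89). In each of the 3 the lowest of the HEY arrays and HEYC2 replicate 2 stood more than 1 log2 unit above the highest of the others. HEYC2 replicate 1 lay inside the range of the others in all 3, at 6.72 for AOX1, 5.24 for DOCK10 and 8.29 for UAP1, and DOCK10 and UAP1 were not called with HEYC2 as the mean of both arrays. The secreted and membrane metalloproteinases ADAMTS12 and MMP16 and the related ADAMTSL1 differed by 2.47 ± 0.33, 2.91 ± 0.26 and 3.25 ± 0.41 (limma adjusted p = 0.0276, 0.00269 and 0.0194, merged 0.267, 0.0559 and 0.164). The adhesion proteins CLMP, a relative of the coxsackie and adenovirus receptor, and NLGN1, a neuroligin, differed by 2.87 ± 0.42 and 2.85 ± 0.35. MMP16 read 4.98 in HEYC2 replicate 1, inside the range of the others, and MMP16 and CLMP were not called with the mean of both HEYC2 arrays. ADAMTSL1 was the 1 gene of the 39 that was also called between HEY and HEYC2, with 8.72 and 8.76 in HEY and 7.67 in HEYC2.

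The remaining 22 genes higher in the HEY lines differed by 1.03 to 2.46 log2 units, and most of them are named here after their values were seen. Signalling genes among them were FGF1, a fibroblast growth factor (2.22 ± 0.16), WNT5B, a WNT ligand (1.63 ± 0.22), and AGTR1, an angiotensin II receptor (1.13 ± 0.10). NLRP3, the inflammasome sensor, read 7.03, 6.85 and 6.93 against 4.14 to 5.13. Genes known mainly from blood cells were PTPN22, a lymphocyte phosphatase (5.18, 4.97 and 4.63 against 2.59 to 3.19), and SLAMF7 (4.97, 4.78 and 5.22 against 3.20 to 4.44). None of the 9 leukocyte markers was called, and their median difference was 0.04. The rest were SSR3, a subunit of a complex at the protein translocon (1.81 ± 0.25), ZMAT3, FAM167A, LY6K, EVI2A, ABI3, AFAP1L1, ARHGAP22, ZNF804A, LINC02910, SLCO1B1, CNRIP1, CDYL2, TSHZ3, APCDD1L and PHACTR1. With HEY and HEYC2 merged, the 10 of the 34 still called were TMEM71, BNC1, RNF17, FAM167A, NLRP3, FGF1, ABI3, PTPN22, LINC02910 and AGTR1.

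**Figure D1:**
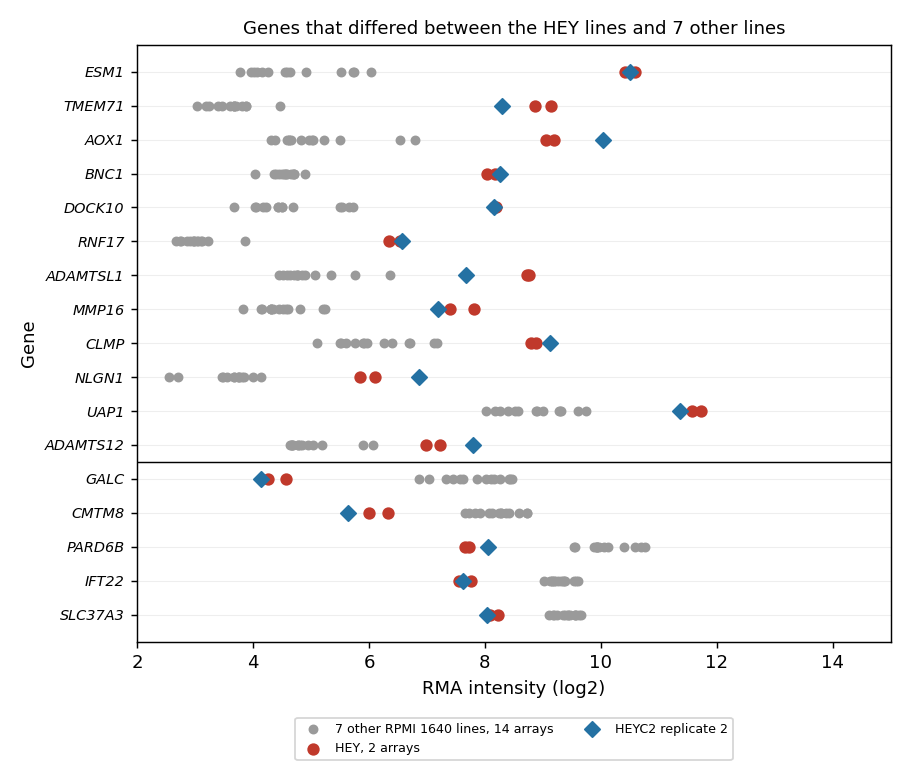
RMA intensity (log2) by array of the 12 genes with the largest rises and the 5 genes that fell in the HEY lines. Coloured points are the HEY arrays and HEYC2 replicate 2, and grey points the 14 arrays of the 7 other RPMI 1640 lines. In each gene the HEY arrays and HEYC2 replicate 2 lie outside all 14 grey points, and HEYC2 replicate 1 is not plotted.

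GALC, the lysosomal galactosylceramidase, had the largest fall. It read 4.56, 4.26 and 4.13 in the HEY lines against 6.86 to 8.46 (median 7.93), a difference of -3.55 ± 0.38 (limma adjusted p = 0.00723, merged 0.164). PARD6B, a subunit of the apical polarity complex, read 7.72, 7.66 and 8.05 against 9.54 to 10.77 (median 9.95), a difference of -2.22 ± 0.30 (limma adjusted p = 0.0276, merged 0.362). For both genes all 7 line means lay above the HEY lines, and HEYC2 replicate 1 read 5.29 for GALC and 9.44 for PARD6B, also below the 14 arrays. CMTM8, a MARVEL-domain membrane protein, differed by -2.31 ± 0.28, IFT22, an intraflagellar transport protein, by -1.66 ± 0.18, and SLC37A3, of the sugar phosphate transporter family, by -1.32 ± 0.18. PARD6B and SLC37A3 were not called with HEYC2 as the mean of both arrays.

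The next 7 genes by size had all 3 arrays below the 14 others but did not pass the test. They were MAL2, a protein of apical transport (-4.82 ± 1.82, limma adjusted p = 0.504), PRAME, a cancer-testis antigen (-4.64 ± 1.49), EPCAM (-4.15 ± 1.78), the imprinted gene MEST (-3.99 ± 0.69, limma adjusted p = 0.0821), CXADR, the coxsackie and adenovirus receptor of tight junctions (-3.63 ± 0.94), HOOK1 (-3.33 ± 1.11) and the uroplakin UPK1B (-3.27 ± 2.04). MAL2 read 4.67, 4.39 and 5.30 in the HEY lines, and the 7 line means ran from 6.60 in COLO720E and 7.20 in A2780 to 14.77 in PEO1. COLO720E and A2780 thus lay nearest to the HEY lines and PEO1 farthest.

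Counted without a model of the spread, 304 genes (1.65%) had all 3 HEY and HEYC2 arrays above the 14 others and 197 (1.07%) below, with line means at least 1 log2 unit apart. Replicate 1 of HEYC2, which was not used to find these genes, lay above all 14 arrays in 26 of the 34 genes called higher (76.5%), against 36.8% of all genes, and below all 14 in all 5 called lower, against 26.1% of all genes. The 8 of the 34 in which it did not lie above were AOX1, DOCK10, RNF17, MMP16, UAP1, EVI2A, TSHZ3 and SSR3. Over the larger sets it lay above in 74 of 304 genes (24.3%) and below in 95 of 197 (48.2%). The compressed range of that array stands beside these shares, and its part in them was not tested.

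Against all 26 other lines of the series, in whatever medium, HEY and HEYC2 were both above every line mean in 227 genes (1.24%) and both below in 138 (0.751%), with OV56 and OVCA420 as 1 array each and HEYC2 as replicate 2. Of the 34 genes called higher, 12 were among the 227, namely ESM1, RNF17, MMP16, UAP1, FGF1, EVI2A, ABI3, LINC02910, WNT5B, CNRIP1, TSHZ3 and AGTR1, and 0 of the 5 called lower were among the 138. The widest gaps above the next line, in log2 units, were those of RNF17 (3.0), the interleukin 13 receptor IL13RA2 (2.13), ESM1 (1.73), the lipase inhibitor G0S2 (1.22), the peptidase neprilysin MME (1.15) and LINC02910 (1.10). IL13RA2 read 8.26, 7.95 and 8.77, and 5.67 in HEYC2 replicate 1, against 2.50 to 6.14 (median 3.07) and missed the test (limma adjusted p = 0.0566). The widest gaps below were those of MAL2 (-1.30), the protease inhibitor SPINT2 (-0.78), BAIAP2L1 (-0.77), the integrin ITGB8 (-0.73), CTBP1-DT (-0.64) and the tight junction protein MARVELD2 (-0.60). BNC1 and AOX1 were not among the 227, with line means of 8.43 in DOV13 for BNC1 and 9.63 in UWB1.289 for AOX1. Nor were others of the 12 largest rises, TMEM71 (9.16 in UWB1.289), DOCK10 and CLMP (9.76 and 10.9 in SKOV3) and ADAMTS12 (9.21 in OVCA433). The same held for ADAMTSL1 (8.11 in TYKNU) and NLGN1 (7.66 in CAOV3).

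Junction genes were the list with the largest share of members below the 7 lines. Of 23 genes of epithelial adhesion and junctions, 19 were measured, PARD6B was called lower and none higher, and 9 lay below all 14 arrays while 0 lay above. Over all genes 0.0272% were called lower, 1.07% lay below and 1.65% above. The median difference was -0.92 log2 units beside -0.02 over all genes, and 17 of 19 members had a negative difference, against 9857 of 18377 genes. The other 8 below all arrays, none of which passed the test, were CDH1, EPCAM, CXADR, MARVELD2, the claudins CLDN3 (-1.51 ± 0.96), CLDN7 (-1.76 ± 0.99) and CLDN10 (-1.36 ± 0.73) and the tight junction adaptor CGN (-1.26 ± 0.53). HEYC2 replicate 1 lay inside the range of the 14 arrays for CLDN3 (8.42), CLDN7 (7.84), CLDN10 (5.52) and CGN (6.83). Of these 8 genes, only MARVELD2 was lower in both HEY and HEYC2 than in all 26 other lines. SKOV3 had line means below both in CDH1 (3.88), CXADR (4.10), CLDN7 (5.04) and CGN (5.51).

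EPCAM, an epithelial adhesion molecule, read 6.32 and 6.16 in HEY and 4.31 in HEYC2, against 6.41 to 14.67 (median 8.90). COLO720E, with a mean of 6.69, lay just above HEY, and PEO1, at 14.53, lay highest. CDH1 read 5.37, 5.64 and 5.59 against 6.16 to 11.84 (median 7.23). HEYC2 replicate 1 read 4.83 for EPCAM and 6.34 for CDH1, the latter inside the range of the 14 arrays. Both HEY arrays were below all 14 arrays in both genes but within 1 log2 unit of the lowest. By an exact permutation test over the 9 line values (2-sided, 36 assignments, smallest possible p 0.0278), the p was 0.0833 for EPCAM and 0.167 for CDH1, and 0.278 for each after adjustment over the 10 anchor genes tested. The test treats HEY and HEYC2 as 2 independent lines, which lines of shared origin are not.

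None of 19 keratin and desmosome genes was called, with a median difference of -0.29 and plakoglobin (JUP) below all arrays (-2.27 ± 0.87), as were 1.07% of all genes. The desmosomal plaque gene DSP had the largest difference (-2.96 ± 0.96, limma adjusted p = 0.408). Of 14 epithelial transcription and splicing factors none was called, 11 had a negative difference (9857 of 18377 over all genes), the median was -0.55, and ELF3 lay below all arrays (-1.94 ± 0.80). GRHL2, a factor that maintains epithelial junctions, read 5.31, 5.54 and 5.61 against 3.93 to 10.69 (median 5.72), inside the range. TFAP2C, a factor of ectoderm and placenta, read 9.45, 9.44 and 8.82, near the top of the 4.0 to 9.72 of the other arrays.

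Of 8 EMT-inducing transcription factors, ZEB1 and ZEB2 lay above all 14 arrays, as did 1.65% of all genes, and none was called, with a median of 0.68. ZEB1 read 8.73, 8.73 and 8.29 against 4.33 to 7.80 (median 7.19), a difference of 1.88 ± 0.82 (limma adjusted p = 0.589). ZEB2 read 6.75, 7.05 and 6.64 against 4.31 to 5.83 (median 4.82), a difference of 1.90 ± 0.31 (limma adjusted p = 0.0676). The exact permutation p was 0.0556 for ZEB1 and 0.0278 for ZEB2, both 0.278 after adjustment, with HEY and HEYC2 again counted as 2 independent lines despite their shared origin. HEYC2 replicate 1 read 6.21 for ZEB1, inside the range of the 14 arrays, and 6.25 for ZEB2, above it. SNAI2 read 10.14, 10.06 and 10.54 within a range of 4.08 to 11.74, with A2780 highest.

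Mesenchymal structural genes overlapped with the other lines. VIM read 12.58, 12.50 and 12.58, level with the mean of 12.58 in OVCAR2 and near that of 11.99 in A2780, while COLO720E, PEO1 and OVCAR3 had means of 4.88, 5.76 and 5.83. CDH2 (10.05, 9.97 and 10.51 against 5.25 to 10.77) and the receptor tyrosine kinase AXL (11.35, 11.26 and 11.02 against 6.55 to 11.68) lay in the upper part of the range. Of 18 mesenchymal cytoskeleton and adhesion genes none was called, the median was -0.33, and S100A4 lay below all arrays (-1.65 ± 0.64), as did 1.07% of all genes. The cadherin CDH6 had the largest difference (-3.86 ± 2.45, limma adjusted p = 0.729).

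**Figure D2:**
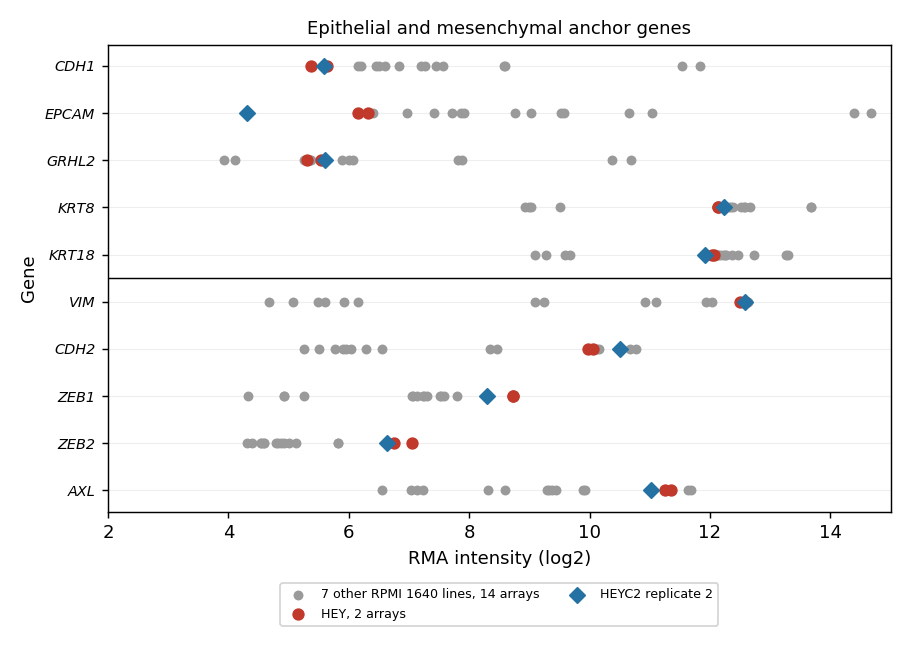
RMA intensity (log2) by array of 10 epithelial and mesenchymal anchor genes, with the HEY arrays and HEYC2 replicate 2 coloured and the 14 other arrays in grey. CDH1 and EPCAM lie below and ZEB1 and ZEB2 above all grey points, while the other 6 genes overlap them.

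Among 20 integrins and laminins none was called and the median was -0.59. ITGA6, a laminin receptor subunit, read 12.02, 11.91 and 11.45 against 6.86 to 11.11 (median 9.03), a difference of 3.06 ± 1.03 (limma adjusted p = 0.427), and the laminin chain LAMB3 (2.81 ± 0.92) also lay above all arrays, while ITGB8 (-2.97 ± 1.58) and LAMA5 (-1.14 ± 0.38) lay below. Of 17 plasminogen and metalloproteinase genes, MMP14, a membrane collagenase (2.62 ± 0.76), and ADAM12 (1.26 ± 0.24) lay above all arrays, and ADAMTS1 had the largest difference (3.19 ± 1.19). The hyaluronan receptor CD44 read 11.97, 11.82 and 11.68 against 5.0 to 11.08 (median 8.65), and endoglin (ENG) differed by 2.35 ± 0.45, the 2 of 11 stem-like surface and aldehyde dehydrogenase genes above all arrays. Of 30 collagens and matrix genes SPARC lay above (2.33 ± 1.13), IGFBP5 below (-1.43 ± 0.85), and FBN2 differed most (3.16 ± 1.28). In HEYC2 replicate 1 ITGA6 read 7.20 and CD44 9.61, both inside the range of the 14 arrays. None of the genes in these 4 lists passed the test. Over all genes 1.65% lay above the 14 arrays and 1.07% below.

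FGF5, a fibroblast growth factor, read 10.04, 9.81 and 9.15 against 4.01 to 8.20 (median 5.24), a difference of 3.70 ± 0.97 (limma adjusted p = 0.275), with 7.20 in HEYC2 replicate 1. With the ligands KITLG (3.02 ± 0.88) and PDGFC (1.98 ± 0.90) it was 1 of 3 members above all arrays among 29 receptor tyrosine kinases and ligands, none of which was called. INHBA, an activin chain, lay above (3.03 ± 0.90) and SMAD6 below (-1.24 ± 0.46) among 22 TGF-beta and BMP genes. WNT5B was the 1 gene called of 27 in the WNT and Notch list, with 8.14, 8.31 and 7.56 against 5.87 to 6.84 (limma adjusted p = 0.0276, merged 0.172), and the Notch ligand JAG1 lay below all arrays (-2.26 ± 0.83). Of 21 RAF-MEK-ERK output genes, SPRY1, a feedback inhibitor (-2.48 ± 1.14), and EGR1 (-1.21 ± 0.51) lay below. None of 18 Hippo genes lay outside, with a median of 0.65 and the largest difference in NT5E (2.76 ± 1.5). Beside the counts of these lists, 1.65% of all genes lay above all arrays, 1.07% lay below and 0.185% were called higher.

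The p53 target and DNA damage list had the largest share above the 7 lines. Of 16 genes measured, ZMAT3 was called, 5 lay above all 14 arrays and 0 below, and the median was 0.61. Over all genes 0.185% were called higher, 1.65% lay above and 1.07% below. ZMAT3, an RNA-binding protein, read 9.59, 9.55 and 10.43 against 7.33 to 8.60 (median 7.66), a difference of 2.25 ± 0.32 (limma adjusted p = 0.0333, merged 0.267). The other 4, none of which passed the test, were the cell cycle inhibitor CDKN1A (8.29, 8.32 and 8.31 against 5.94 to 8.09), the death receptor FAS (8.65, 8.52 and 9.04 against 5.14 to 8.22), the apoptosis gene BAX (1.08 ± 0.42) and the ribonucleotide reductase subunit RRM2B (1.79 ± 0.32, limma adjusted p = 0.0898). ZMAT3 was not called with HEYC2 as the mean of both arrays. In HEYC2 replicate 1 CDKN1A read 8.95 and BAX 10.54, above the 14 arrays, and FAS 6.44, inside their range. RRM2B read 6.66 there, below all 14 arrays and so opposite to the other HEY and HEYC2 arrays. In the cell cycle list of 21 genes, CDKN1A, RB1 (1.79 ± 0.33) and MKI67 (1.02 ± 0.24) lay above all arrays, CDKN2A differed most (-1.93 ± 0.92) and none was called. RB1 and MKI67 read 6.31 and 7.51 in HEYC2 replicate 1, both below all 14 arrays.

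Interferon-stimulated genes had a negative difference in 21 of 22 members, with a median of -0.80, yet none was called. IFITM1, which restricts virus entry, was the 1 below all arrays (5.18, 5.10 and 5.08 against 5.91 to 12.14). In the inflammatory list NFKBIA (-1.43 ± 0.49) and ICAM1 (-1.96 ± 0.99) lay below and IL1A differed most (2.58 ± 2.29). PDCD1LG2, a ligand of the checkpoint receptor PD-1, read 7.93, 7.53 and 7.29 against 4.0 to 6.72 (median 4.60), a difference of 2.68 ± 0.54 (limma adjusted p = 0.132) with 5.39 in HEYC2 replicate 1, in a list of 13 with a median of -0.62. Mullerian and serous markers had a negative difference in 18 of 21, with a median of -0.68, the folate receptor FOLR1 below all arrays (-1.49 ± 0.63) and the largest difference in the protease inhibitor SLPI (-3.51 ± 1.65). None of the genes in these lists was called. Over all genes 9857 of 18377 had a negative difference, 1.65% lay above the 14 arrays and 1.07% below.

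No gene was called in the remaining lists. TXNRD1 and AKR1C2, of NRF2 and glutathione metabolism, lay above all arrays (1.25 ± 0.35 and 1.82 ± 0.32), AKR1C3 differed most there (2.53 ± 1.18), and VEGFA, of the hypoxia list, lay below (-1.75 ± 0.54). No HOX gene and no sterol or fatty acid synthesis gene lay outside the 14 arrays, with the largest differences in HOXB2 (1.89 ± 1.19) and FADS2 (-1.26 ± 0.94). PRAME was the 1 oncofetal gene outside, and over all genes 1.65% lay above the 14 arrays and 1.07% below. TIE1, an endothelial receptor kinase, read 8.94, 9.07 and 8.12 against 4.96 to 7.23, and CD68, PDPN and MSLN differed most in the leukocyte, fibroblast and mesothelial lists (0.70 ± 0.68, 2.01 ± 1.05 and -0.73 ± 1.0).

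**Figure D3:**
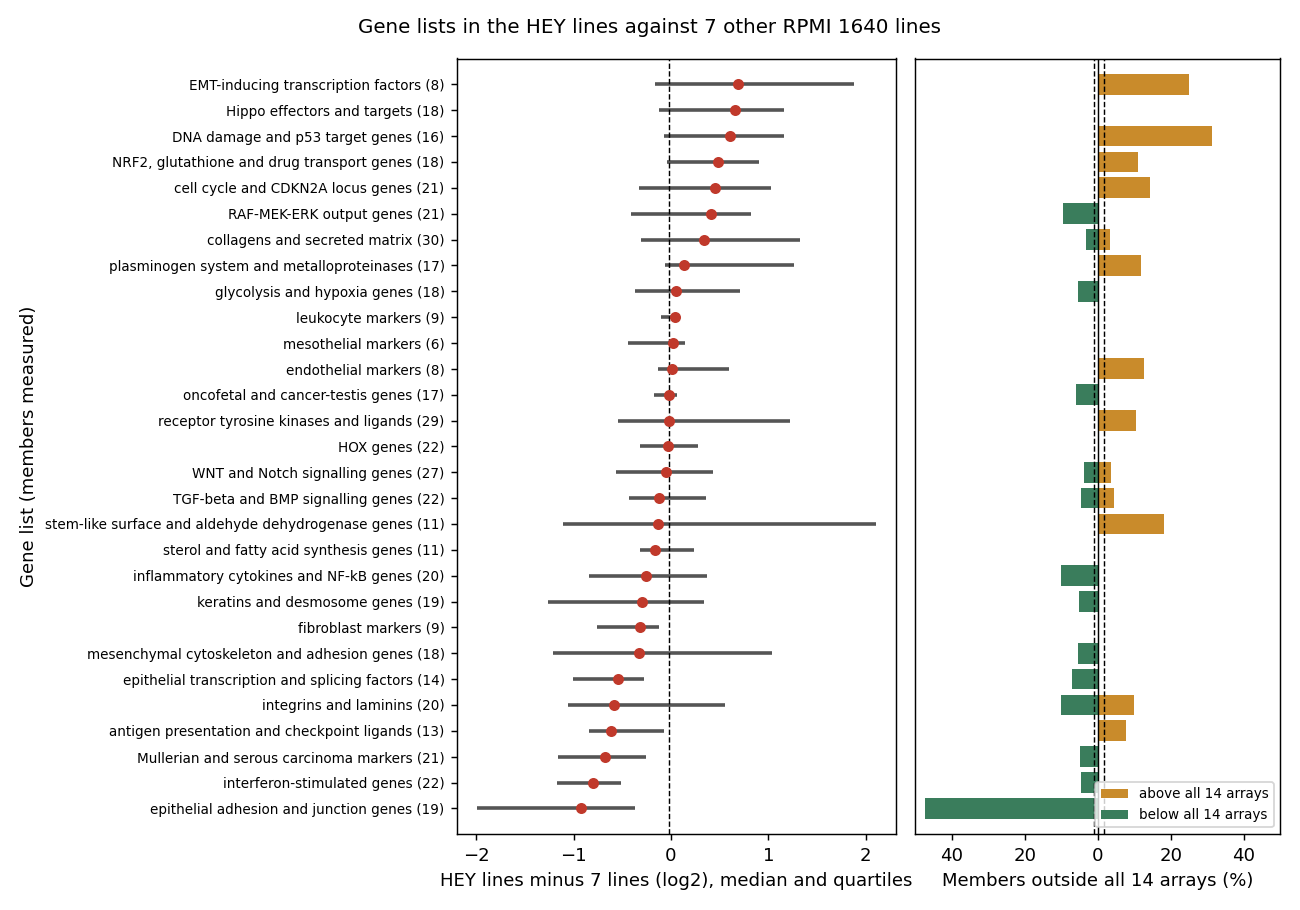
Left, the median and quartiles of the difference HEY lines minus 7 lines (log2) for each gene list, with all genes as a dashed line. Right, the percent of members whose 3 HEY and HEYC2 arrays lie above or below all 14 arrays, with the shares of all genes, 1.65% and 1.07%, as dashed lines. Junction genes stand lowest with 9 of 19 below, and the p53 list has 5 of 16 above.

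To describe what separates the related lines, HEY was compared with HEYC2 in a fit of the 17 arrays with a mean for each line, in which the lone HEYC2 array is assumed to vary like the duplicates of the other lines. Of 18377 genes, 267 (1.45%) were higher and 70 (0.381%) lower in HEY at a limma adjusted p under 0.05 and a difference of at least 1 log2 unit, 39 and 5 of them by 2 log2 units or more. In all of them both HEY arrays lay on one side of the HEYC2 array. With 1 HEYC2 array, a property of the line and one of that array cannot be told apart. On simulated data the comparison recovered 86% of genes changed by 1.5 log2 units and 94% of those changed by 2, with 4 false calls. The simulation gave the lone HEYC2 array the spread of duplicate arrays, so it cannot test that assumption. These shares and false calls may not hold for the real array.

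Replicate 1 of HEYC2 was not used in that fit. It lay below both HEY arrays in 242 of the 267 genes higher in HEY (90.6%), against 38.5% of all genes, and above both in 36 of the 70 genes lower in HEY (51.4%), against 58.2% of all genes. With both HEYC2 arrays in the fit, 247 genes were higher and 42 lower in HEY, of which 184 and 15 were among the 267 and the 70. Most genes higher in HEY were thus called with either choice of HEYC2 arrays, and most genes lower in HEY were not. The fit with both arrays still holds replicate 2, which chose the genes, so it is not a separate check. Replicate 1 has a compressed range, and its part in these shares was not tested.

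**Figure D4:**
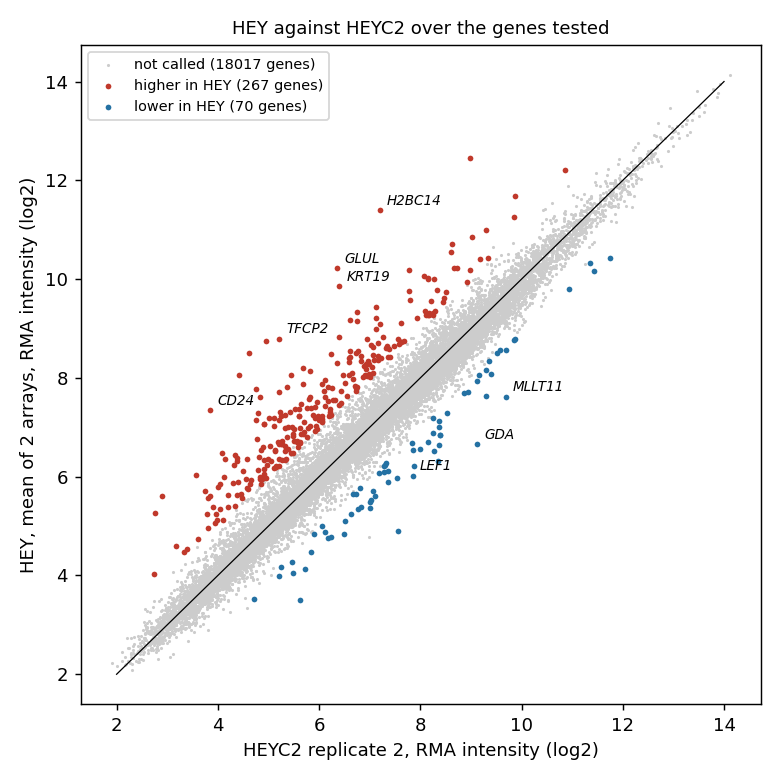
RMA intensity (log2) of each gene in HEY (mean of 2 arrays) and in HEYC2 replicate 2, with the line of equal values. The 267 genes called higher in HEY reach farther from the line, up to 4.20 log2 units, than the 70 called lower.

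The largest difference was that of the histone gene H2BC14, which read 11.48 and 11.32 in HEY and 7.20 and 9.29 in HEYC2 replicates 2 and 1, against 6.25 to 12.94 (median 11.64) in the 14 other arrays, a difference of 4.20 ± 0.18 (SE; limma adjusted p = 4.39e-11). H3C11 differed by 3.47 ± 0.36, and with both HEYC2 arrays it was not called. By symbol, 6 of 57 replication-type histone genes (10.5%) were called higher in HEY and 0 lower, against 1.45% and 0.381% of all genes. The 6 were H2BC14, H3C11, H3C12, H2AC14, H1-5 and H4C13, while the median over the 57 was 0.06. This family was chosen after its values were seen, and its members are near-identical copies between which probes may share signal.

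GLUL, glutamine synthetase, had the smallest p. It read 10.32 and 10.13 in HEY and 6.36 and 6.18 in HEYC2 replicates 2 and 1, a difference of 3.86 ± 0.12 (limma adjusted p = 1.97e-16). HEY lay within the 7.04 to 11.97 (median 10.69) of the 14 arrays and HEYC2 below all of them, with A2780 next at a mean of 7.13. TFCP2, a transcription factor related to the Grainyhead family, read 8.94 and 8.64 in HEY and 5.21 and 5.04 in HEYC2 replicates 2 and 1, against 7.54 to 9.16 (median 8.64), a difference of 3.58 ± 0.17 (limma adjusted p = 1.48e-12). OCIAD2, a mitochondrial and endosomal protein, read 8.49 and 8.50 in HEY and 4.62 and 4.99 in HEYC2 replicates 2 and 1, against 5.07 to 9.68 (median 8.97), a difference of 3.87 ± 0.16. In these 3 genes HEY lay within the range of the other lines and both HEYC2 arrays were below all 14 arrays.

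The promoter windows of GLUL and TFCP2 are shown because HEYC2 stood below every other RPMI 1640 array in these genes, again with each CG dinucleotide in capitals (RefSeq, GRCh38.p14). GLUL lies on the minus strand at chr1:182391791-182392040, the first of 2 windows listed, and TFCP2 on the minus strand at chr12:51173136-51173385.
GLUL: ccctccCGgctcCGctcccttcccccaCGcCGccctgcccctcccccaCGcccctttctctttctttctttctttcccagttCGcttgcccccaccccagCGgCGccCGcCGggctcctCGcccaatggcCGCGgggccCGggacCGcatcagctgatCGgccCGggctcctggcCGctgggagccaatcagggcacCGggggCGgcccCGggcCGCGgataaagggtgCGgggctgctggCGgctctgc
TFCP2: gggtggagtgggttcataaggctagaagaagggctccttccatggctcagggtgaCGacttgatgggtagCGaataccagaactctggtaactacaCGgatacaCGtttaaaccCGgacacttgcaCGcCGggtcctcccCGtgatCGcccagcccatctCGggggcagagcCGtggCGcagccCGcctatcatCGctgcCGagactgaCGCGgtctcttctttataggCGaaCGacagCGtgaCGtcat
They hold 25 and 21 CG dinucleotides. The median was 19.0 over the genes higher in HEY with a window, 11 over the 58 lower in HEY with one and 18.0 over all tested genes, and 49.2%, 32.8% and 45.0% of them held 20 or more.

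Other genes of the 12 largest rises in HEY included the lysophosphatidic acid receptor LPAR1, with 8.86 and 8.65 in HEY and 4.95 and 5.35 in HEYC2 replicates 2 and 1 (3.80 ± 0.28), and the adenylate kinase AK5, with 8.18 and 7.95 in HEY and 4.41 and 4.15 in HEYC2 replicates 2 and 1 (3.65 ± 0.33). In both, HEY lay above all 14 other arrays, which reached 6.85 and 5.23, and HEYC2 lay within their range. LPCAT2, a lysophospholipid acyltransferase, differed by 3.02 ± 0.22, QNG1, which salvages queuosine, by 2.80 ± 0.16, and HENMT1, a methyltransferase of small RNAs, by 2.73 ± 0.21. HENMT1 read 5.22 in HEYC2 replicate 1 against 2.89 in replicate 2 and was not called with both.

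Over the 267 genes higher in HEY, HEYC2 lay below all 14 other arrays in 78 (29.2%) and HEY above all 14 in 43 (16.1%), against 6.51% and 5.32% of all genes. In 216 the HEY mean lay within the range of the 14 arrays and in 182 the HEYC2 array did, and in 46 HEYC2 was below all 26 other line means. Over the 70 genes lower in HEY, HEYC2 lay above all 14 in 22 (31.4%) and HEY below all 14 in 8 (11.4%), against 7.69% and 4.45% of all genes. The HEY and HEYC2 arrays behind these shares are those that chose the genes, so the shares are a description.

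Epithelial genes were among those higher in HEY. KRT19, a keratin of simple epithelia, read 9.85 and 9.88 in HEY and 6.40 and 7.35 in HEYC2 replicates 2 and 1, against 7.99 to 13.44 (median 10.20), a difference of 3.46 ± 0.14 (limma adjusted p = 2.62e-14). CD24, a mucin-like surface glycoprotein, read 7.36 and 7.35 in HEY and 3.84 and 4.91 in HEYC2 replicates 2 and 1 (3.51 ± 0.21), and EPCAM differed by 1.93 ± 0.20. In KRT19, CD24 and EPCAM both HEYC2 arrays lay below all 14 others. The desmosome genes DSP (1.28 ± 0.16) and DSC3 (1.49 ± 0.31) were also called, though not with both HEYC2 arrays. In all, 1 of 19 junction genes, 3 of 19 keratin and desmosome genes and 0 of 14 epithelial transcription and splicing factors were called. Over all genes 1.45% were called higher in HEY and 0.381% lower. CDH1 and GRHL2 differed by -0.09 ± 0.18 and -0.19 ± 0.21. Of 18 mesenchymal genes FN1, fibronectin, was called lower in HEY (-1.14 ± 0.18), and with both HEYC2 arrays its difference was -0.03.

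Counts of list members called between HEY and HEYC2 stand against 1.45% of all genes called higher in HEY and 0.381% called lower. Of 30 collagen and matrix genes 5 were higher and 0 lower, COL5A2 (2.43 ± 0.18), the collagen crosslinking enzyme LOX (1.90 ± 0.16), TGFBI (1.70 ± 0.17), THBS1 (1.39 ± 0.13) and COL6A3 (1.36 ± 0.21). COL5A2, a fibrillar collagen chain, read 8.80 and 8.83 in HEY and 6.39 and 6.86 in HEYC2 replicates 2 and 1. Of 17 protease genes 3 were higher, the plasminogen activator PLAT (2.55 ± 0.17), the inhibitor TIMP3 (2.31 ± 0.15) and the gelatinase MMP2 (1.16 ± 0.23), and of 20 integrins and laminins 2, ITGA2 (1.86 ± 0.15) and ITGB3 (1.04 ± 0.20). MMP2 and ITGB3 were not called with both HEYC2 arrays.

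Of 22 TGF-beta and BMP genes 5 were higher in HEY and 0 lower, where 1.45% and 0.381% of all genes were. GREM1, a BMP antagonist, read 7.77 and 7.85 in HEY and 5.36 and 5.98 in HEYC2 replicates 2 and 1 (2.45 ± 0.20), and the activin antagonist FST (2.42 ± 0.19), the signal transducer SMAD3 (1.3 ± 0.20), ID2 (1.21 ± 0.22) and the receptor TGFBR2 (1.15 ± 0.14) were the others. Of 27 WNT and Notch genes 4 were higher, the WNT inhibitors SFRP1 (1.92 ± 0.16) and DKK3 (1.39 ± 0.17) and the receptors FZD7 (1.02 ± 0.18) and ROR1 (1.02 ± 0.20), and 2 were lower. Those were LEF1, a transcription factor of the WNT pathway, with 6.06 and 5.97 in HEY and 7.85 and 6.13 in HEYC2 replicates 2 and 1 (-1.84 ± 0.23, limma adjusted p = 6.35e-06), and the R-spondin receptor LGR5 (-1.40 ± 0.25). Neither LEF1 nor LGR5 was called with both HEYC2 arrays.

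Among receptors and immune genes, again beside 1.45% of all genes called higher, a few members of each list were called. KIT, a receptor tyrosine kinase, read 6.35 and 6.61 in HEY and 4.08 and 4.85 in HEYC2 replicates 2 and 1, HEY lying above the 3.66 to 5.43 of the 14 arrays (2.40 ± 0.24), and MERTK (1.68 ± 0.18) and the ligand HBEGF (1.0 ± 0.18) made 3 of 29 in their list. CD274, which encodes PD-L1, read 8.54 and 8.42 in HEY and 6.23 and 5.51 in HEYC2 replicates 2 and 1 (2.25 ± 0.27, limma adjusted p = 3.41e-06), and the immunoproteasome subunits PSMB8 (1.3 ± 0.19) and PSMB9 (1.06 ± 0.18) made 3 of 13. CXCL8, a neutrophil chemokine (1.64 ± 0.25), and the NF-kB inhibitor TNFAIP3 (1.07 ± 0.23) were 2 of 20 inflammatory genes, and HERC5 (1.88 ± 0.22) was 1 of 22 interferon-stimulated genes. MERTK and PSMB9 were not called with both HEYC2 arrays. CDH5, an endothelial cadherin, read 8.21 and 8.49 in HEY and 6.82 and 6.51 in HEYC2 replicates 2 and 1 (1.53 ± 0.19), the 1 of 8 endothelial markers called.

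In the other lists the Hippo target ANKRD1 was called higher in HEY (2.41 ± 0.16), as were SLC2A3, a glucose transporter (1.12 ± 0.19), CA12 (1.09 ± 0.17) and ENO2 (1.07 ± 0.14) of the hypoxia list and the cyclin CCND2 (1.05 ± 0.23). Of the Mullerian markers WT1 was higher (1.08 ± 0.20) and PAX8 lower (-1.09 ± 0.25). CA12, CCND2, WT1 and PAX8 were not called with both HEYC2 arrays.

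The genes lower in HEY had smaller differences, and HEYC2 replicate 1 shared fewer of them. GDA, guanine deaminase, read 6.75 and 6.58 in HEY and 9.12 and 6.56 in HEYC2 replicates 2 and 1 (-2.46 ± 0.20, limma adjusted p = 1.46e-08), so that replicate 1 of HEYC2 was level with HEY. The small nucleolar RNAs SNORD116-14 and SNORD116-15, of an imprinted cluster, read 4.94 and 4.87 in HEY and 7.55 and 9.69 in HEYC2 replicates 2 and 1 for the former (-2.65 ± 0.47) and 6.40 and 6.23 in HEY and 8.35 and 10.29 in HEYC2 replicates 2 and 1 for the latter (-2.03 ± 0.46). They are near-identical copies, and 3 of 20 copies measured were called lower, against 0.381% of all genes. The others of the 12 largest were CLIC2 (-2.12 ± 0.34), MLLT11 (-2.07 ± 0.29), LEF1, HMGN5 (-1.77 ± 0.25), NAP1L2 (-1.72 ± 0.35), the phospholipase genes PLA2G4A (-1.66 ± 0.19) and PLCB4 (-1.66 ± 0.18), SERPINI1 (-1.65 ± 0.22) and SATB1 (-1.63 ± 0.26). With both HEYC2 arrays SNORD116-14 and SNORD116-15 were called of these 12, against 10 of the 12 largest rises.

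**Figure D5:**
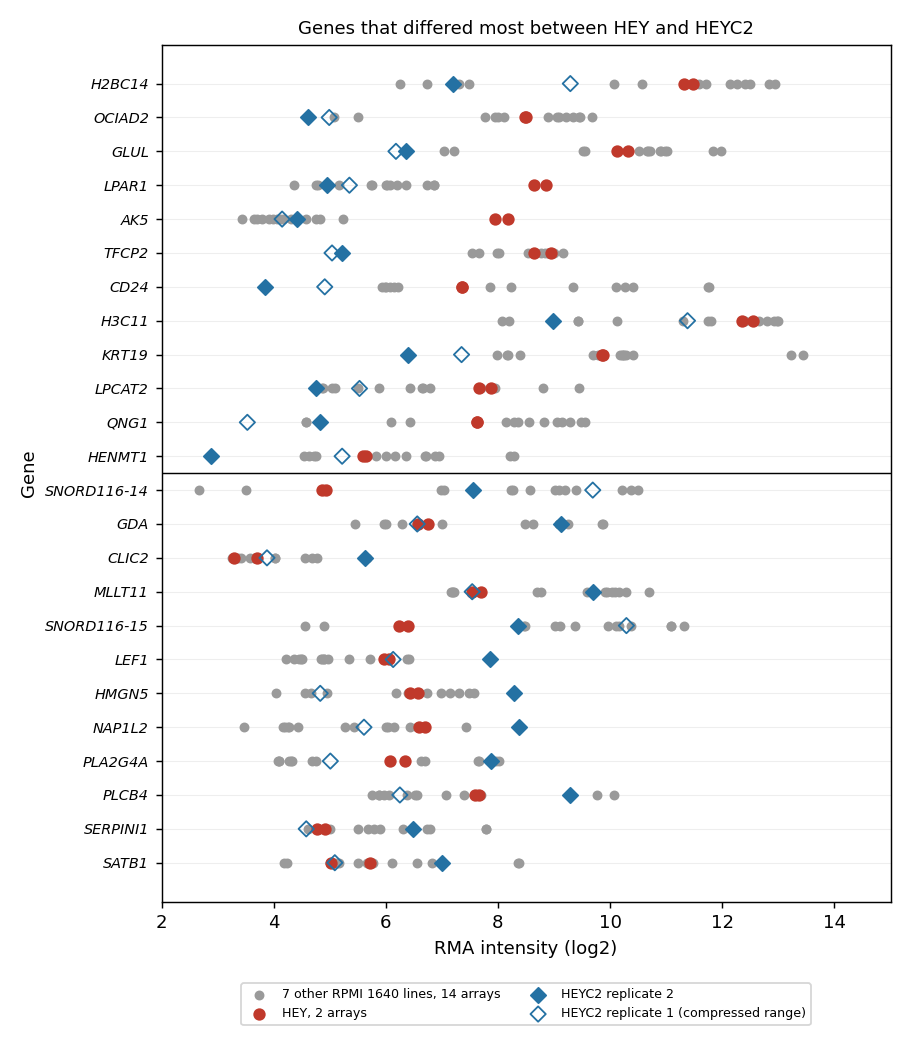
RMA intensity (log2) by array of the 12 largest rises and 12 largest falls in HEY against HEYC2, with HEY replicates 1 and 2, HEYC2 replicates 2 and 1 and the 14 other arrays. Replicate 1 of HEYC2 lies on the HEYC2 side of both HEY arrays in all 12 rises and in 4 of the 12 falls.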

How the data were processed

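Total RNA of 28 ovarian cancer cell lines, 2 arrays each (56 in all), was hybridised to Affymetrix Human Gene ST arrays. The deposited log2 intensities were made by the authors with RMA, and per the labels with affy 1.42.3. The number of arrays limits the precision. Probe sets were named from the platform annotation, in which 19310 of 28869 had 1 gene (19279 matched by gene ID), 1752 several and 7807 none listed. For 685 genes with several probe sets, the brightest on average was used, which gave 18377 genes without a filter on level. limma 3.58.1 (lmFit, eBayes with trend and robust) in R 4.3.3 compared 2 with 7 line means, and HEY with HEYC2 over 17 arrays with a mean for each line, with Benjamini-Hochberg adjustment over all 18377 genes. Both were tested on simulated data. Exact permutation tests used scipy 1.17.1 on 10 anchor genes. Genes outside the 14 arrays were counted with no test. Gene lists got counts and medians only. The genes named were the 12 largest called each way in each comparison (filled from genes outside all arrays where fewer were called), up to 4 called members of each list or else the one with the largest difference, the anchors, and the 6 each way with the widest gap to all 26 other lines. The lines, lists and rules were chosen with earlier results of these data known. Alternatives were other references, arrays, blocks, filters, normalization and probe set rules, and each line or HEY array left out.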

Additional observations from a re-analysis of the deposited data

Results flagged for a closer look

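Among 60 genes examined, 7 had 1 of the 7 other RPMI 1640 lines far from the other 6, by the gap to its nearest neighbour over the range of the 7 line means against Dixon's 95% critical value. Chance gives about 1 in 20, a rate that holds for genes not chosen on these same values. OVCAR2 stood apart in ADAMTS12 (0.740), ZEB2 (0.671) and ADAMTSL1 (0.644), OVCAR5 in ZMAT3 (0.701) and PDCD1LG2 (0.593), EFO21 in PDPN (0.758) and PEO1 in NLGN1 (0.658). In ADAMTS12, ZEB2, ADAMTSL1, ZMAT3 and PDCD1LG2 the line that stood apart lay highest of the 7 and below HEY and HEYC2.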

How the results depend on the processing

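The genes higher in the HEY lines (34) numbered 186 with 17 arrays and the line as a random block (duplicate correlation 0.815), 158 with a replicate block added, 11 with HEY and HEYC2 merged, 22 among the 12752 genes of at least 6 in 2 lines, and 10 to 43 with 1 line left out (10 without HEY, 15 without HEYC2, 43 without OVCAR5). The genes lower (5) numbered 94, 72 and 0 under the first 3 settings, 2 against the 3 lines in RPMI 1640 with 10% FBS and no supplement (0 of them among the 5, and 26 higher with 10 among the 34), and 0 to 9 with 1 line left out (1 without HEY, 0 without HEYC2, 9 without OVCAR5). Against all 26 other lines the counts were 33 and 5, but 14 and 0 of those genes were among the 34 and the 5. Genes higher in HEY than HEYC2 (267) numbered 756 and genes lower (70) 548 with no minimum difference, 247 and 42 with both HEYC2 arrays, and 273 and 65 with a replicate block. Genes above all 14 arrays (304) fell to 80 with both HEYC2 arrays, and those below (197) ran from 211 to 426 with 1 line left out, highest without HEY. The cause was not tested, except that fewer lines or arrays leave fewer values to lie outside of. Uncalled differences changed sign for KRT18 in the HEY lines (-0.05 to 0.63 with 1 line left out, lowest without A2780) and for SNAI2 between HEY and HEYC2 (0.60 with both HEYC2 arrays). Of the values of single genes under the alternatives, 1144 kept their direction and side of the threshold, 119 lost and 46 gained the call in the comparison with the 7 lines, and 580, 41 and 10 did so between HEY and HEYC2.

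The deviations of same-numbered arrays correlated at r of -0.253 to 0.198 over 28 pairs of lines, 8 of them over 0.1. These values gave no pairing by replicate number common to all lines. A batch shared by some of the lines was not tested. Signal near background was not tested, since the files give no detection calls.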

Other observations

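Further gene families differed in their calls between HEY and HEYC2, all chosen after their values were seen. Of 493 genes with a ZNF symbol, most of them zinc-finger transcription factors, 18 (3.65%) were called higher in HEY and 1, ZNF415, lower, against 1.45% and 0.381% of all genes, and their median difference was -0.001. Of 16 PCDHB genes, clustered protocadherins on chromosome 5, 3 were called lower in HEY, PCDHB3, PCDHB14 and PCDHB16, and none higher, with a median of -0.074. Of 12 SERPINB genes, intracellular protease inhibitors, SERPINB7 was higher and SERPINB1 and SERPINB5 lower. Members of each family are alike in sequence, so probes may share signal between them. Across all lines, the array most like those of HEY and HEYC2 was replicate 2 of OVCA433, with a mean r of 0.949 across genes.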
